A study of Mus musculus with 31 samples.

Results

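The genes described here are 10 immediate-early genes of the AP-1 and EGR families: *Fos*, *Fosb*, *Fosl1*, *Fosl2*, *Jun*, *Jund*, *Egr1*, *Egr2*, *Egr3* and *Atf3*. They are the entries of the deposited count table whose gene name equals one of these names. All 10 were found among 39179 genes, and all 10 passed the low-count filter in tumors and in cultures.

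The study measured RNA in mouse melanomas treated with the glucocorticoid (GC) clobetasol propionate, and in the same melanoma cells treated in culture. The 20967 line carries the alleles Nras+LSL-G12D and Tyr::CreERT2+/o. Its GC receptor (GR, gene *Nr3c1*) was disrupted with Cas9 to make GR KO cells, which come from a single cell clone. The hosts were wild-type C57BL/6 mice, so cells of the host kept their receptor in every tumor.

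There were 4 groups of 5 tumors grown in the skin: parental with control cream, parental with GC, GR KO with control cream and GR KO with GC. The ointment held 0.05% clobetasol propionate and was given 3 times per week. The cultures were parental cells with DMSO (3 libraries) or GC (2), and GR KO cells, again with DMSO (3) or GC (3). The sample labels give 10 µM clobetasol for the cultures, whereas the library names give 1 µM. Parental and GR KO cells therefore differ by the edit and also by the passage through 1 clone, and these data cannot separate the 2.

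FOS and JUN proteins pair through leucine zippers to form AP-1, which binds a short palindromic motif and drives genes of growth, invasion and inflammation. EGR proteins are zinc-finger factors that bind GC-rich promoter elements. Genes of both families are induced within minutes by MAP kinase signaling and serum response factor, and ligand-bound GR can restrain AP-1 by protein contact without any fall in AP-1 messenger RNA.

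*Nr3c1* itself was read at 63.4, 57.1, 44.9, 55.6 and 52.2 CPM (counts scaled to library size) in control parental tumors, and at 53.4, 24.4, 48.2, 37.3 and 49.8 with GC. GR KO tumors had 20.7, 27.3, 31.4, 31.8 and 23.5 with control cream, and 47.9, 21.7, 58.0, 32.5 and 49.4 with GC. Cultured parental cells gave 33.2, 30.0 and 35.6 (DMSO) and 39.5 and 33.4 (GC), and GR KO cells 24.8, 21.0 and 16.4, and 20.9, 22.5 and 13.1. The reads come from the 3′ end of the transcript, so they check nothing about the edit itself.

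Library totals ran from 15528066 to 26386770 counts in tumors and from 14441166 to 22463188 in cultures. The group medians were 17750913, 20602855, 19871559 and 19736725 for the tumors in the order above, and 16648617, 18452177, 18780474 and 17054739 for the cultures. A value of 3 counts or fewer is called the floor here. Divided by the library totals that is 0.114 to 0.208 CPM, whereas the CPM printed below use TMM-scaled totals, so that 3 counts can print as 0.22. The libraries were amplified and no molecular identifiers are described, so the floor covers counting error alone.

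Some libraries stood apart before any gene was compared. The non-coding transcript *Gm26924* took 11.6, 8.97, 6.57, 0.248 and 16.3% of the counts in control GR KO tumors. It took 5.55, 1.76, 1.24, 1.7 and 0.439% in control parental tumors, 1.6, 2.78, 1.25, 1.67 and 0.7% in parental tumors with GC, and 0.8, 2.89, 0.959, 6.65 and 1.48% in GR KO tumors with GC. At equal depth, control GR KO tumors had 13379, 14769, 15118, 16740 and 14243 genes detected, against 15132 to 16875 in the other tumors. Control GR KO tumor 4 differed from the other 4 of its group in both measures. Mitochondrial transcripts took 0.587, 0.629, 0.755, 1.15 and 0.976% in control GR KO tumors, including tumor 4, against 1.25 to 2.47% in the other 15 tumors. What caused these differences was not tested. Comparisons that include this group were repeated with the *Gm26924* share and the detected genes accounted for, but not with the mitochondrial share.

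**Figure D1:**
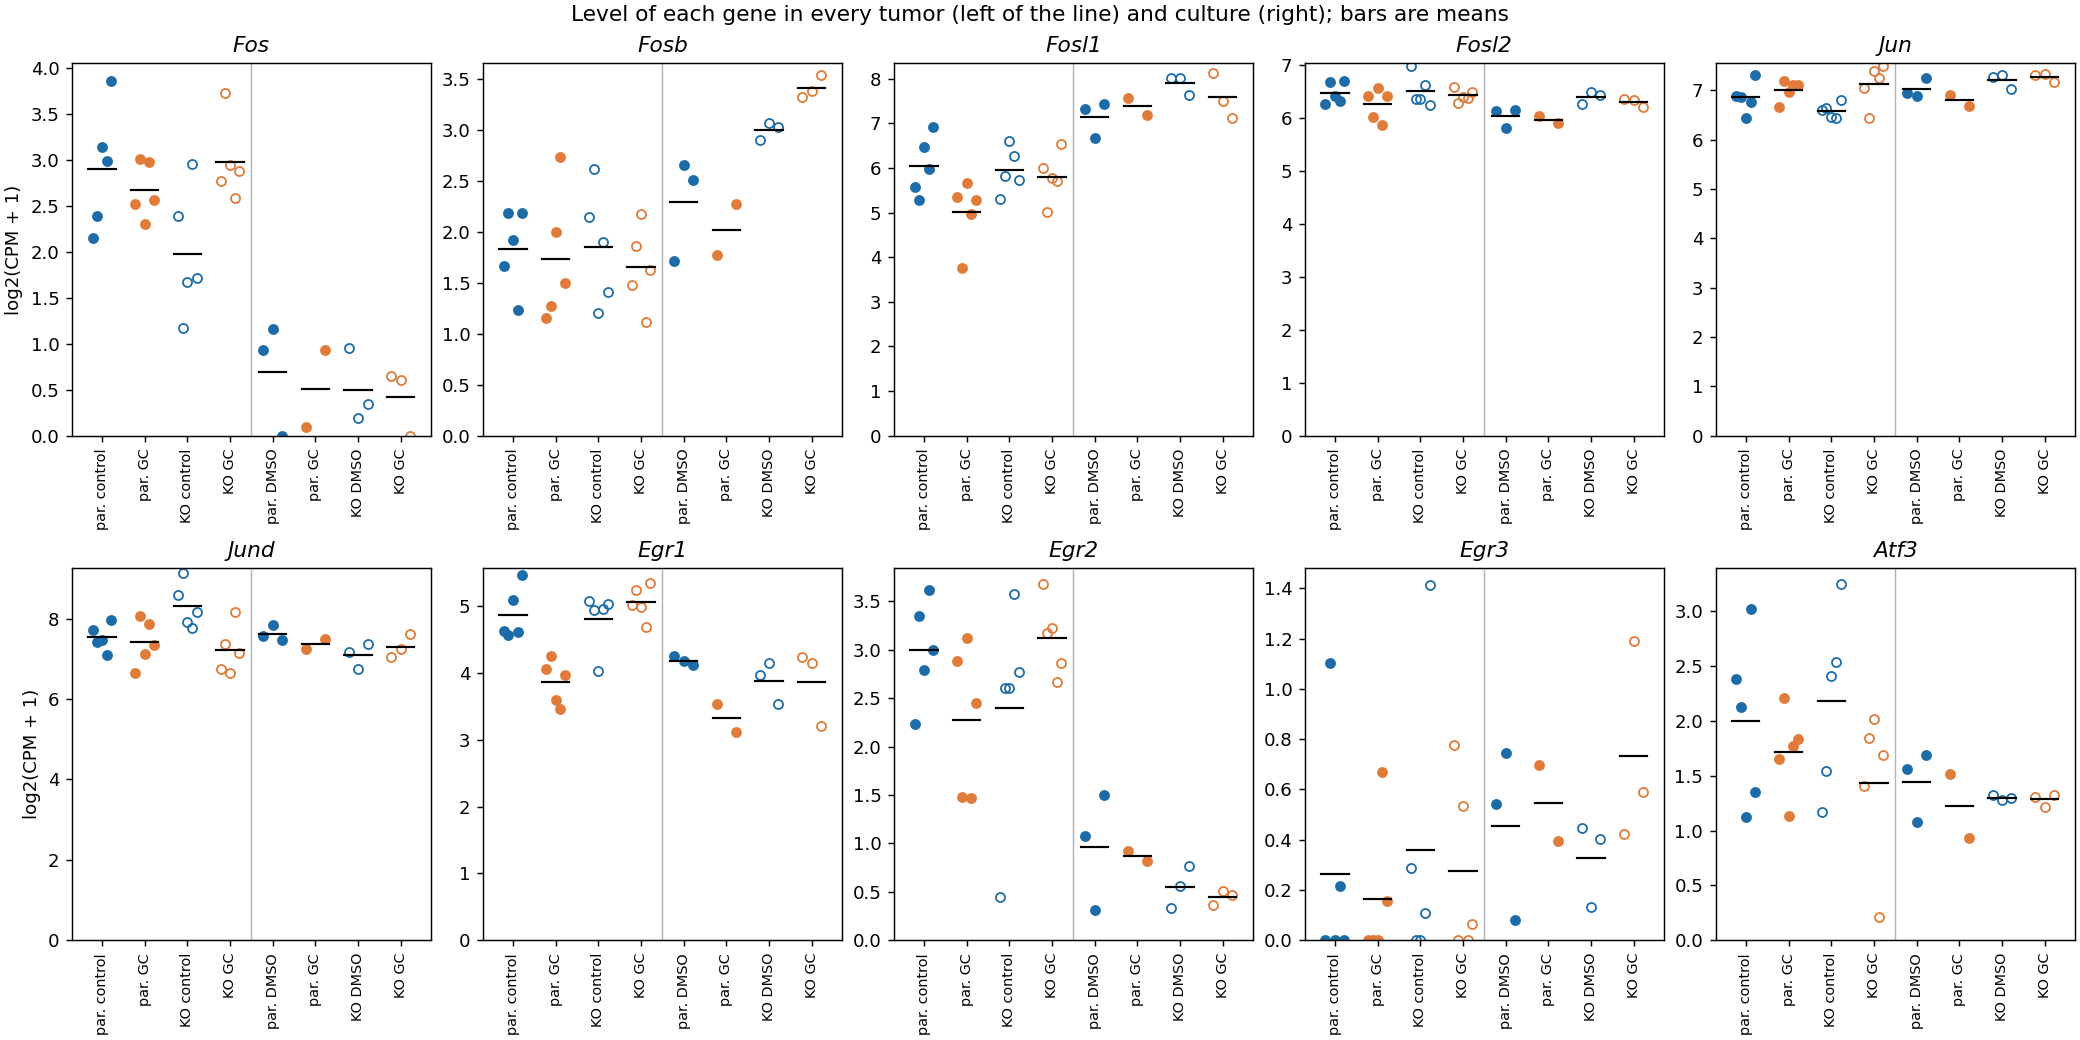
Levels of the 10 genes in each library as log2(CPM + 1); points are libraries (filled, parental, "par."; open, GR KO, "KO"; blue, control cream or DMSO; orange, GC) and bars are group means.

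*Fos* encodes the prototypic partner of JUN. Its values in parental tumors were 3.44, 4.22, 7.82, 6.93 and 13.5 CPM with control cream and 4.75, 7.07, 3.93, 6.89 and 4.9 with GC. Tumors of GR KO cells gave 4.25, 1.25, 2.19, 6.76 and 2.27 with control cream and 5.84, 12.2, 6.7, 4.98 and 6.36 with GC. The 2 parental groups overlapped, as did the 2 GR KO groups.

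The *Fos* log2 fold change with GC was -0.38 (standard error 0.43) in parental tumors and 1.10 (0.44) in GR KO tumors. The adjusted p values (edgeR, Benjamini-Hochberg over all tested genes, as for every adjusted p below) were 0.742 and 0.123. Without control GR KO tumor 4, the highest *Fos* value of its group, the GR KO estimate was 1.54 with adjusted p = 0.0231. Without the 6 tumors that had over 5% of counts on *Gm26924* it was 0.20, with 1 control GR KO tumor left. In control tumors *Fos* differed by -1.10 between GR KO and parental (adjusted p = 0.165), and by -1.53 (adjusted p = 0.0299) without that same tumor. Its GC difference in parental minus that in GR KO tumors was -1.49 (adjusted p = 0.183), and -1.92 (adjusted p = 0.0466) without it. Leaving this tumor out also raised the share of all genes that passed, from 6.42 to 15.2%, from 2.25 to 11.1% and from 0.195 to 8.1% in these 3 comparisons.

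*Fosb*, which encodes a FOS protein with an activation domain like that of FOS, was low throughout. Parental tumors gave 2.17, 3.55, 2.78, 1.35 and 3.54 CPM with control cream and 1.22, 1.41, 3.01, 5.66 and 1.82 with GC. With GR KO cells the values were 3.44, 5.14, 1.3, 2.74 and 1.66, and 1.78, 2.64, 3.51, 1.17 and 2.09. The ranges overlapped in both genotypes, and the log2 fold changes with GC were -0.03 (adjusted p = 0.989) and -0.35 (adjusted p = 0.716).

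*Fosl1* encodes FRA-1, an AP-1 subunit that lacks a strong activation domain and follows sustained MAP kinase signaling. Parental tumors gave 46.8, 38.1, 87.6, 61.6 and 120 CPM with control cream and 39.8, 12.6, 49.4, 30.3 and 37.9 with GC. GR KO tumors gave 38.5, 55.2, 96.3, 75.7 and 52.1, and 62.6, 31.1, 53.7, 51.6 and 91.4. In parental tumors the groups overlapped between 38.1 and 49.4. The log2 fold change there was -1.06 (standard error 0.35), nearly the same size as that of *Egr1* below, but its adjusted p was 0.17. With the number of detected genes as a covariate it was -1.19, with adjusted p = 0.0438. The GR KO estimate was -0.13, with adjusted p = 0.855.

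*Fosl2* encodes FRA-2, the other subunit of this kind. It varied little: 75.5, 102, 84.6, 79.3 and 103 CPM in control parental tumors and 84.4, 63.8, 93.6, 57.5 and 84.5 with GC. The GR KO values were 125, 81.5, 80.6, 97.1 and 74.7, and 95.1, 76.8, 83.6, 82.1 and 88.4. The groups overlapped, with log2 fold changes of -0.21 (adjusted p = 0.635) and -0.11 (adjusted p = 0.75).

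*Jun*, encoding the partner that FOS proteins need to bind DNA, was read at 118, 116, 86.4, 108 and 157 CPM in control parental tumors and at 100, 146, 124, 137 and 137 with GC. Its GR KO values were 95.8, 98.4, 87.5, 85.7 and 111 with control cream, and 131, 85.8, 166, 151 and 180 with GC. Of the 5 GR KO values with GC, 4 lay above every control value, and tumor 2 with GC lay at the bottom of the control range. The log2 fold change with GC was 0.14 (adjusted p = 0.8) in parental tumors and 0.58 (standard error 0.19, adjusted p = 0.0728) in GR KO tumors. Without that GC tumor the GR KO estimate was 0.71, with adjusted p = 0.0226. With the filter set at 10 counts in every sample it was 0.60, with adjusted p = 0.0443.

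*Jund* encodes a JUN protein that is present in resting cells and is often set against JUN in growth control. Parental tumors gave 209, 169, 175, 136 and 250 CPM with control cream and 99.4, 268, 139, 233 and 162 with GC, a log2 fold change of -0.06 (adjusted p = 0.957). GR KO tumors gave 381, 564, 242, 218 and 284 CPM with control cream, and 107, 165, 100, 285 and 140 with GC. GC tumor 4 reached 285 CPM and so overlapped the control range, while the other 4 lay below it.

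*Jund* fell with GC in GR KO tumors, its log2 fold change being -1.08 (standard error 0.31, adjusted p = 0.0367). This call depended on the libraries that stood apart, and the control group of this comparison is also the one with the lowest mitochondrial shares. With the number of detected genes as a covariate the value was -0.58 (adjusted p = 0.277), and with the share of *Gm26924* as a covariate -0.89 (adjusted p = 0.0701). Without the 6 tumors over 5% *Gm26924* it was -0.78, in a fit where 1 control GR KO tumor remained and was assumed to vary like the others. With the 2 GR KO groups fitted alone the value was -1.08 and the adjusted p 0.074.

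Leaving out single tumors also removed the *Jund* call in GR KO tumors. The estimates were -1.04 (adjusted p = 0.0843) without control tumor 1 and -0.82 (adjusted p = 0.129) without control tumor 2. Without GC tumors 1, 2, 3 or 5 they were -0.97 (adjusted p = 0.094), -1.10 (adjusted p = 0.0519), -0.95 (adjusted p = 0.11) and -1.04 (adjusted p = 0.089). Between control tumors of the 2 genotypes *Jund* differed by 0.85 (adjusted p = 0.129), and by 0.96 (adjusted p = 0.045) without control GR KO tumor 4. Its GC difference in parental minus that in GR KO tumors was 1.02, with adjusted p = 0.193.

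*Egr1* is the EGR gene most readily induced by MAP kinase signaling. Parental tumors gave 23.8, 22.6, 32.9, 23.4 and 42.9 CPM with control cream and 15.7, 18, 11.1, 10.0 and 14.6 with GC, and these 2 groups did not overlap. GR KO tumors gave 32.6, 29.8, 15.3, 29.9 and 31.7 with control cream, and 31.3, 36.8, 30.8, 24.8 and 39.8 with GC. The GR KO groups overlapped. The share of all genes whose groups do not overlap is not given here, so the separation of *Egr1* only describes these values.

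*Egr1* fell with GC in parental tumors, its log2 fold change being -1.07 (standard error 0.24, adjusted p = 0.034). Its estimate in GR KO tumors was 0.23 (standard error 0.24, adjusted p = 0.587). The difference between these 2 estimates was -1.30 (standard error 0.34), with adjusted p = 0.0842 by edgeR and -1.26 with adjusted p = 0.0182 by DESeq2. Without control GR KO tumor 4 the edgeR value was -1.33, with adjusted p = 0.0309, in a fit where 8.1% of all genes passed in place of 0.195%. Under GC alone, *Egr1* was higher in GR KO than in parental tumors by 1.24 (standard error 0.24, adjusted p = 0.0146). With control cream the 2 genotypes differed by -0.06 (adjusted p = 0.912).

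The size of the *Egr1* fall in parental tumors was steady, from -1.18 to -0.88 when single tumors were left out, but its adjusted p lay near the threshold. Without control parental tumors 3 or 5 it was -1.02 (adjusted p = 0.103) and -0.88 (adjusted p = 0.143). Without GC tumors 3, 4 or 5 it was -0.99 (adjusted p = 0.0821), -0.97 (adjusted p = 0.105) and -1.09 (adjusted p = 0.0718). With the 2 parental groups fitted alone it was -1.08 (adjusted p = 0.0613). The call was kept with each of the 2 covariates (adjusted p = 0.0175 for detected genes and 0.0206 for *Gm26924*) and without the 6 tumors (-1.12, adjusted p = 0.0253). Under GC, the difference between genotypes was 1.14 (adjusted p = 0.0524) without parental tumor 4 and 1.15 (adjusted p = 0.0541) without GR KO tumor 5.

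*Egr2*, which encodes the EGR protein best known from Schwann cells and T cells, was scarce. Parental tumors gave 3.69, 9.16, 5.92, 11.3 and 7.0 CPM with control cream and 6.38, 1.78, 7.69, 1.77 and 4.45 with GC. GR KO tumors gave 0.366, 5.08, 5.06, 10.9 and 5.84, and 11.8, 8.03, 8.36, 5.35 and 6.27. The groups overlapped in both genotypes. The log2 fold changes had the same signs as those of *Egr1*, -0.75 in parental and 0.54 in GR KO tumors, with standard errors of 0.54 and 0.53 and adjusted p of 0.557 and 0.562. With the number of detected genes as a covariate the GR KO value of *Egr2* was -0.28 (adjusted p = 0.855), of the other sign.

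*Egr3*, an EGR gene of lymphocytes and muscle, was at the floor in 15 of 20 tumors: 4, 4, 4 and 3 per group in the order above. Its tumor values were 0, 1.15, 0, 0.162 and 0 CPM, then 0, 0, 0, 0.591 and 0.114, then 0.22, 0, 0, 0.0772 and 1.66, then 0.713, 0, 0.45, 0 and 0.0454. No fold change is given for it.

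*Atf3* encodes a stress-induced bZIP protein that pairs with JUN and mostly represses. Parental tumors gave 4.2, 3.36, 1.18, 7.09 and 1.56 CPM with control cream and 2.14, 3.61, 1.19, 2.41 and 2.56 with GC. The GR KO values were 1.25, 1.91, 4.3, 4.79 and 8.48, and 1.65, 2.59, 3.06, 0.159 and 2.22, of which 0.159 was at the floor. The groups overlapped, and the log2 fold changes were -0.54 (adjusted p = 0.749) and -1.10 (standard error 0.63, adjusted p = 0.287).

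In parental tumors, then, 1 of the 10 genes passed the test with GC, and in GR KO tumors 1 other gene did. Over all tested genes the share passing was 0.779% in parental tumors (124 of 15919) and 6.42% in GR KO tumors (1022 of 15919). These shares were not steady. With the detected-genes covariate they were 3.28% and 1.36%, in the reverse order, and without the 6 tumors 0.993% and 0.187%. Leaving out 1 tumor gave from 60 (without control 3) to 178 genes (without control 2) in parental tumors, and from 303 (without GC 3) to 2411 (without control 4) in GR KO tumors. The median log2 fold change of the 10 genes was -0.463 in parental tumors, against 0.00397 over all genes, and 9 of 10 estimates were below 0. In GR KO tumors the median was -0.119 against 0.0515, with 6 of 10 below 0. Without the scarce *Egr3*, which is among those below 0 in both genotypes, the medians were -0.38 and -0.11. The unadjusted p was under 0.05 for 2 genes in parental tumors (*Fosl1* and *Egr1*) and for 3 in GR KO tumors (*Fos*, *Jun* and *Jund*), against 2249 and 3893 of all 15919 genes. The 2 sets of tumors share neither mice nor controls, but the genes that passed differed between them.

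For the GC effect in parental minus that in GR KO tumors, 0 of the 10 genes passed in edgeR and 1 in DESeq2. Unadjusted p was under 0.05 for 3 of them (*Fos*, *Jund* and *Egr1*) and for 3192 of all genes, and 0.195% of all genes passed in edgeR (31 of 15919) against 5.13% in DESeq2 (817). The medians were -0.321 for the 10 genes and -0.0393 over all. In control tumors 0 of the 10 differed between genotypes by edgeR and 0 by DESeq2, with 2 under 0.05 unadjusted (*Fos* and *Jund*) against 3180 of all 15919 genes, and 2.25% of all genes passing. The medians there were -0.00784 and -0.043. Without *Egr3* the first was -0.06, on the other side of the all-gene median. Under GC 1 of the 10, *Egr1*, differed between genotypes, against 0.634% of all genes, with medians of 0.27 and 0.00993. Here the first median was 0.15 without *Egr3*. A p value that misses the threshold with 5 tumors per group does not show that a gene is unchanged.

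**Figure D2:**
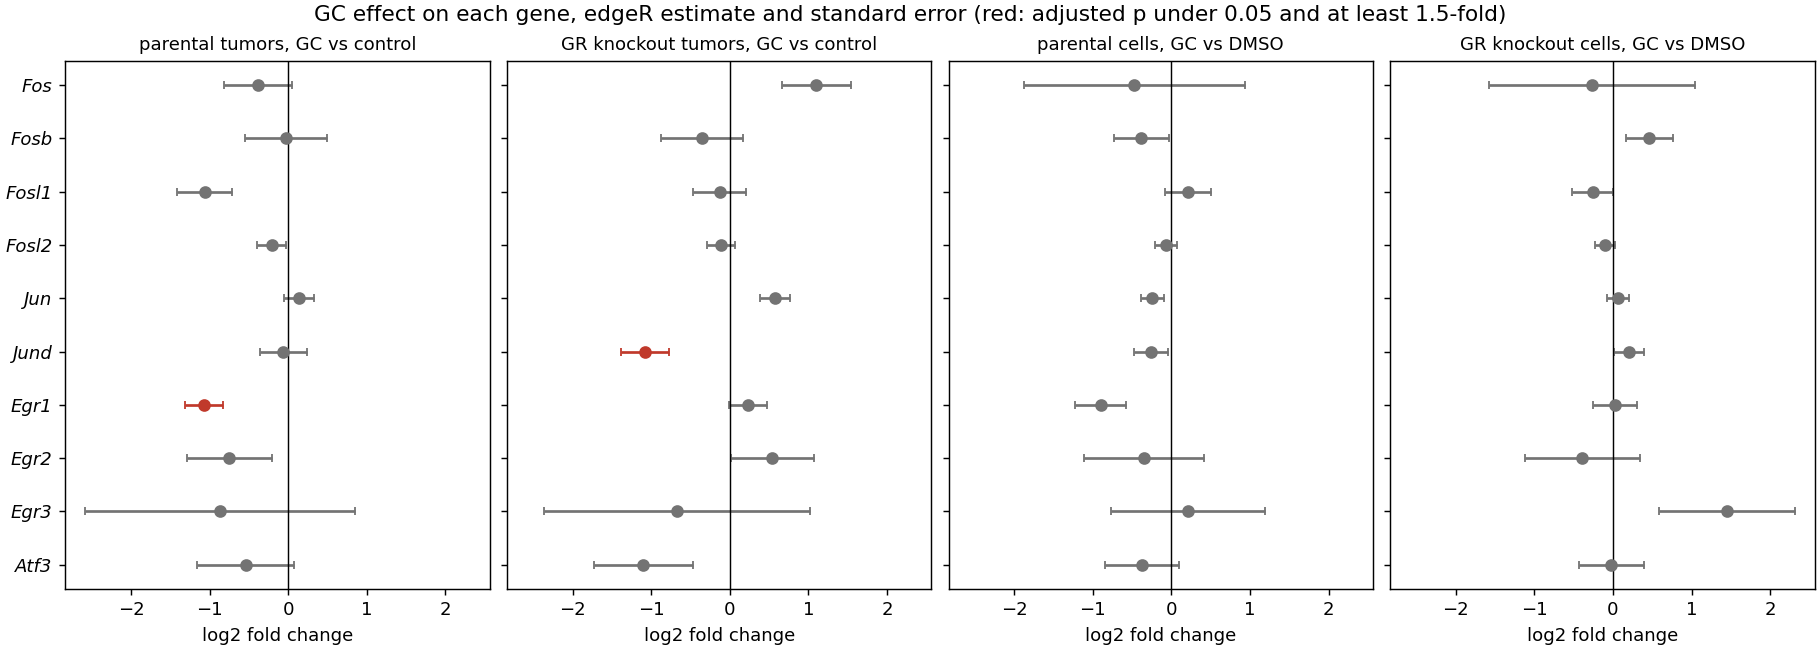
edgeR log2 fold changes of the 10 genes with their standard errors in 4 comparisons of GC with control cream or DMSO. Points are estimates, bars are standard errors, and red marks adjusted p < 0.05 with at least 1.5-fold. "GR knockout" is GR KO. The points of *Egr3*, and of *Fos* in cells, rest on few counts and are not given in the text.

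In culture the cells were read after 48 h of treatment, well beyond the minutes in which these genes are induced. *Fos* was close to absent there. Parental cells gave 14, 20 and 0 counts (DMSO) and 1 and 20 (GC), and GR KO cells 18, 3 and 5, and 10, 11 and 0. Because libraries of the same group ranged from 0 to 20 counts, no fold change with GC is given. *Egr3* lay between 0.0588 and 1.28 CPM in the cultures and is not compared either.

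*Egr1* in parental cells was 18, 17.0 and 16.3 CPM with DMSO and 10.6 and 7.68 with GC. The log2 fold change was -0.90 (standard error 0.32, adjusted p = 0.404). In GR KO cells it was 14.7, 16.7 and 10.6 CPM with DMSO and 17.8, 16.7 and 8.27 with GC, giving 0.03 (standard error 0.28, adjusted p = 0.997). The difference between the 2 estimates was -0.93 (standard error 0.43, adjusted p = 0.576). These 3 estimates did not pass the test.

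The other FOS genes did not pass with GC in culture. *Fosl1* was 159, 101 and 172 CPM in parental cells (DMSO) and 189 and 145 (GC; log2 fold change 0.21, adjusted p = 0.8). In GR KO cells it was 259, 259 and 197, and 279, 181 and 137 (-0.26, adjusted p = 0.976). *Fosb* was 2.28, 5.3 and 4.7, and 2.41 and 3.84 in parental cells (-0.38, adjusted p = 0.733). In GR KO cells *Fosb* was 6.49, 7.4 and 7.16 with DMSO and 9.02, 9.41 and 10.6 with GC (0.46, adjusted p = 0.976). *Fosl2* was 69.3, 55.1 and 69.7, and 64.3 and 58.7 in parental cells (-0.07, adjusted p = 0.86), and 75.5, 89.4 and 85.1, and 80.5, 79.6 and 73.0 in GR KO cells (-0.10, adjusted p = 0.976).

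*Jun* in culture was 123, 118 and 152 CPM with DMSO and 119 and 102 with GC in parental cells (-0.24, adjusted p = 0.685). In GR KO cells it was 153, 157 and 130, and 157, 159 and 143 (0.06, adjusted p = 0.976). *Jund* was 190, 228 and 176, and 151 and 179 in parental cells (-0.26, adjusted p = 0.712), and 144, 106 and 164, and 131, 150 and 195 in GR KO cells (0.20, adjusted p = 0.976). The *Jund* groups overlapped in both genotypes.

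*Egr2* was 1.11, 0.246 and 1.82 CPM in DMSO-treated and 0.897 and 0.768 in GC-treated parental cells (-0.35, adjusted p = 0.875). GR KO cells gave 0.26, 0.477 and 0.7, and 0.285, 0.425 and 0.379 (-0.39, adjusted p = 0.976). *Atf3* was 1.95, 1.11 and 2.23, and 1.86 and 0.904 in parental cells (-0.37, adjusted p = 0.786), and 1.51, 1.43 and 1.45, and 1.48, 1.32 and 1.51 in GR KO cells (-0.02, adjusted p = 1).

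In parental cells 0 of the 10 genes passed with GC by edgeR and 0 by DESeq2, with 1 (*Egr1*) and 1062 of all genes under 0.05 unadjusted. Over all genes 0.878% passed (110 of 12525), and the medians were -0.306 for the 10 genes and -0.000516 over all. In GR KO cells 0 of the 10 passed by edgeR and 0 by DESeq2, and 0 had unadjusted p under 0.05. Here 0% of all 12525 genes passed: 0 by edgeR and 0 by DESeq2, with 237 under 0.05 unadjusted, and the medians were 0.00288 and 0.0191. The first median was -0.02 without *Egr3*. For the difference between the 2 GC effects in cells 0 of the 10 passed by edgeR and 0 by DESeq2, with 1 (*Egr1*) and 1075 of all genes under 0.05 unadjusted, and 0.295% of all genes passing. The medians there were -0.324 and -0.0268. The cultures are not stated to be separate experiments, so these p values measure the spread between these libraries.

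With DMSO alone, the log2 differences of *Fosb*, *Fosl1*, *Fosl2* and *Jund* between GR KO and parental cells were 0.78 (adjusted p = 0.146), 0.73 (adjusted p = 0.115), 0.36 (adjusted p = 0.107) and -0.52 (adjusted p = 0.121). By edgeR 0 of the 10 genes passed and by DESeq2 0, although these 4, and 3037 of all genes, had unadjusted p under 0.05, and 8.22% of all genes passed (1030 of 12525). The medians were -0.28 for the 10 genes and 0.0142 over all. With the number of detected genes as a covariate *Fosl1* (0.95, adjusted p = 0.00269) and *Jund* (-0.67, adjusted p = 0.00194) passed, as did 22.3% of all genes. With the *Gm26924* covariate neither did (1.00, adjusted p = 0.332, and -0.51, adjusted p = 0.479), and 1.23% of all genes passed. Without a low-count filter *Fosl1* did (0.74, adjusted p = 0.0473).

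Tumors and cultures were also compared within each genotype, with control cream and DMSO. These differ in host cells, in growth conditions and in handling all at once, and 46.7% (7595 of 16273) and 54.8% (8917) of all genes passed for parental and GR KO. *Fos* was higher in tumors by 3.27 (standard error 0.87, adjusted p = 0.00249) and 2.87 (adjusted p = 0.00591). With 0 to 20 *Fos* counts per culture these sizes are rough, and leaving out 1 library gave 2.68 to 3.93 and 2.38 to 3.99. *Egr2* was higher by 2.76 (adjusted p = 0.00194) and 3.48 (adjusted p = 0.000253), with 2.30 to 3.41 and 3.01 to 3.84 when 1 library was left out, and *Egr1* by 0.72 (adjusted p = 0.0348) and 0.96 (adjusted p = 0.00511). *Fosl1* was lower, with -1.08 (adjusted p = 0.0151) and -1.94 (adjusted p = 3.87e-05). Rapid induction while tumors are taken out can raise such genes, and no time to preservation is given here.

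In the GR KO comparison *Jund* was also higher in tumors than in cells (1.25, adjusted p = 0.00162), *Jun* lower (-0.66, adjusted p = 0.00377) and *Fosb* lower (-1.34, adjusted p = 0.0176). The parental estimates were -0.12, -0.21 and -0.65, and the difference between the genotypes was not tested. With the detected-genes covariate the parental *Jund* estimate changed sign, as given in the section on processing. Without the 6 tumors over 5% *Gm26924*, with 1 control GR KO tumor left, *Fosb* was -1.37, *Jun* -0.79 and *Jund* 0.65 for GR KO. Their calls were lost in that fit. In all, 4 of the 10 genes passed for parental and 7 for GR KO, with medians of 0.145 against 0.372 over all genes and 0.743 against 0.33. Without *Egr3* the medians were 0.41 and 0.96, so for parental the side of the all-gene median depends on that scarce gene.

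Several of the calls between parental tumors and cells moved. *Fosl1* was lost without DMSO culture 1 (-1.0, adjusted p = 0.0535) or 3 (-0.93, adjusted p = 0.0715). *Egr1* was lost without control tumor 3 (0.70, adjusted p = 0.0518) or 5 (0.50, adjusted p = 0.146), and without DMSO culture 1 (0.76, adjusted p = 0.069), 2 (0.71, adjusted p = 0.0864) or 3 (0.69, adjusted p = 0.0983). For GR KO, *Atf3* passed without control tumor 1 (1.70, adjusted p = 0.0319) or 2 (1.66, adjusted p = 0.0456).

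The tumors are bulk samples, in which fewer cells of a type and less RNA per cell cannot be told apart, so marker sums are given beside the genes. Endothelial markers (6 of 6 detected, *Kdr* the most abundant) summed to 69.9, 60.8, 49.5, 71.6 and 50.1 CPM in control parental tumors and to 39.8, 25.3, 28.5, 38.1 and 39.9 with GC. Neutrophil markers (6 of 7 detected, *S100a8* the most abundant, *Ly6g* at 0) summed to 23.8, 68.3, 245, 33.3 and 1280, and to 16.2, 11.6, 13.7, 25.3 and 40.5. Dendritic cell markers (5 of 5, *Ccr7*) summed to 13.7, 11.6, 16.8, 21.2 and 14.6, and to 10.1, 4.24, 4.15, 2.22 and 4.67. Fibroblast markers (7 of 7, *Col3a1*) summed to 6750, 7390, 6980, 7470 and 7150, and to 10700, 8290, 10700, 7700 and 10700. Erythroid markers had group means of 119 and 72.8 CPM, and mast cell markers (4 of 4, *Tpsb2*) of 163 and 257. Means of the remaining lists were 5340 and 6860 (monocyte and macrophage), 90.6 and 78.6 (T and NK cell), 7.31 and 6.95 (B cell), 1720 and 1970 (keratinocyte), 376 and 388 (striated muscle) and 60.6 and 79.0 (melanocyte lineage). The melanocyte sum is led by *Mitf*, and 4 of 6 tested genes of that list were lower (median -0.991). Of 9 monocyte and macrophage markers 5 were lower (median -0.063), although that sum rose. As lower, 2 of 6 tested neutrophil markers passed (median -1.79), and as higher 2 of 7 keratinocyte markers, against 0.779% of all genes passing. Whether *Egr1* followed any of these sums was not tested.

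In GR KO tumors the endothelial sum was 99.1, 100, 116, 107 and 98.9 CPM with control cream and 56.8, 56.7, 51.2, 48.1 and 54.0 with GC. The neutrophil sum was 430, 786, 266, 179 and 1030, and 99.2, 51.7, 231, 201 and 138. The fibroblast sum was 3690, 3990, 4570, 6570 and 5140, and 10000, 8120, 11300, 7390 and 11200. Keratinocyte markers (7 of 7, *Krt14*) summed to 3240, 3860, 3240, 1930 and 2010, and to 1190, 1400, 1830, 2010 and 1710. Erythroid markers (5 of 5, *Hbb-bs*) summed to 204, 250, 194, 256 and 153, and to 93.0, 35.8, 55.1, 72.2 and 49.3. Group means of the remaining lists were 131 and 72.5 (T and NK cell), 465 and 306 (striated muscle), 8.5 and 3.92 (B cell), 12.1 and 6.94 (dendritic cell), 7670 and 6090 (monocyte and macrophage), 117 and 116 (mast cell) and 51.6 and 52.5 (melanocyte lineage). A sum follows its most abundant genes. Of 7 keratinocyte markers 4 were higher and 3 lower with GC (median 0.136), with 2 passing as higher and 1 as lower. Of 6 neutrophil markers tested 2 were higher and 4 lower, with 0 passing in edgeR (median -0.266). Of 9 monocyte and macrophage markers 6 were higher (median 0.18, 1 passing), although that sum fell. Fibroblast markers passed as higher in 4 of 7, against 6.42% of all genes passing. As lower, 4 of 5 erythroid, 1 of 6 endothelial, 1 of 8 T and NK cell and 1 of 6 striated muscle markers passed. Whether *Jund* followed any of these sums was not tested.

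Co-variation was asked of *Fos* with the other 9 genes, tumor by tumor, as log2(CPM + 1) minus the group mean over the 20 tumors. *Egr1* had Pearson r = 0.50 with *Fos* (permutation p = 0.0643) and Spearman rho = 0.52 (permutation p = 0.0336). Both adjusted p values were 1.0 (Benjamini-Hochberg over 15918 genes). Without the 2 tumors of highest and lowest *Fos* level, parental control 5 and GR KO control 2, r was 0.47. The other 8 genes had r from -0.18 to 0.15. Without those 2 tumors *Jun* had r = -0.47 and *Fosb* r = 0.33, and the rest had r from -0.26 to 0.06.

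Over all 15918 genes 0 passed with *Fos*, and 507 had unadjusted p under 0.05. The median r was 0.02 for the 9 genes and 0.01 over all. Among 10220 genes with a mean of at least 5 CPM, *Tmem79* was by r the most alike to *Fos* (r = 0.78, p = 0.00016, rho = 0.79, p = 0.00021, adjusted p = 1.0 by r and 0.875 by rho, r without the 2 tumors 0.81). *Eps8l2* (r = 0.76, rho = 0.81, above that of *Tmem79*) and *1700021F05Rik* (r = 0.75) came next, each with adjusted p = 1.0 by r.

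Because *Fos* was low, each of the other 9 genes was then taken as the reference, a choice made after the *Fos* result was seen. That gives 45 pairs in all, with r from -0.60 to 0.50, a median of 0.03 and 24 above 0. By r 0 pairs passed. By rho *Jund* with *Egr2* passed with either gene as the reference (rho = -0.73, permutation p = 0.00073, adjusted p = 0.023 with *Jund* as the reference). Its r was -0.60 (permutation p = 0.0126, adjusted p = 0.0728), and -0.74 without GR KO control tumors 1 and 2. With replicate number as a block r was -0.73 (adjusted p = 0.0102), so by r the call changed. In that setting 3554 of 15918 genes passed by r, against 1864 without the block. With *Jund* as the reference 10.3% of all genes passed by rho (1643 of 15918), so such a relation was common.

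The *Jund* and *Egr2* relation differed between settings, and its cause was not tested. With the number of detected genes also removed, r was -0.05 and rho -0.06 (adjusted p = 0.962 by rho). With the share of *Gm26924* removed, r was -0.47 and rho -0.57 (adjusted p = 0.187 by rho). In the 14 tumors at or under 5% *Gm26924*, r was -0.81 and rho -0.81 (adjusted p = 0.209 by rho).

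**Figure D3:**
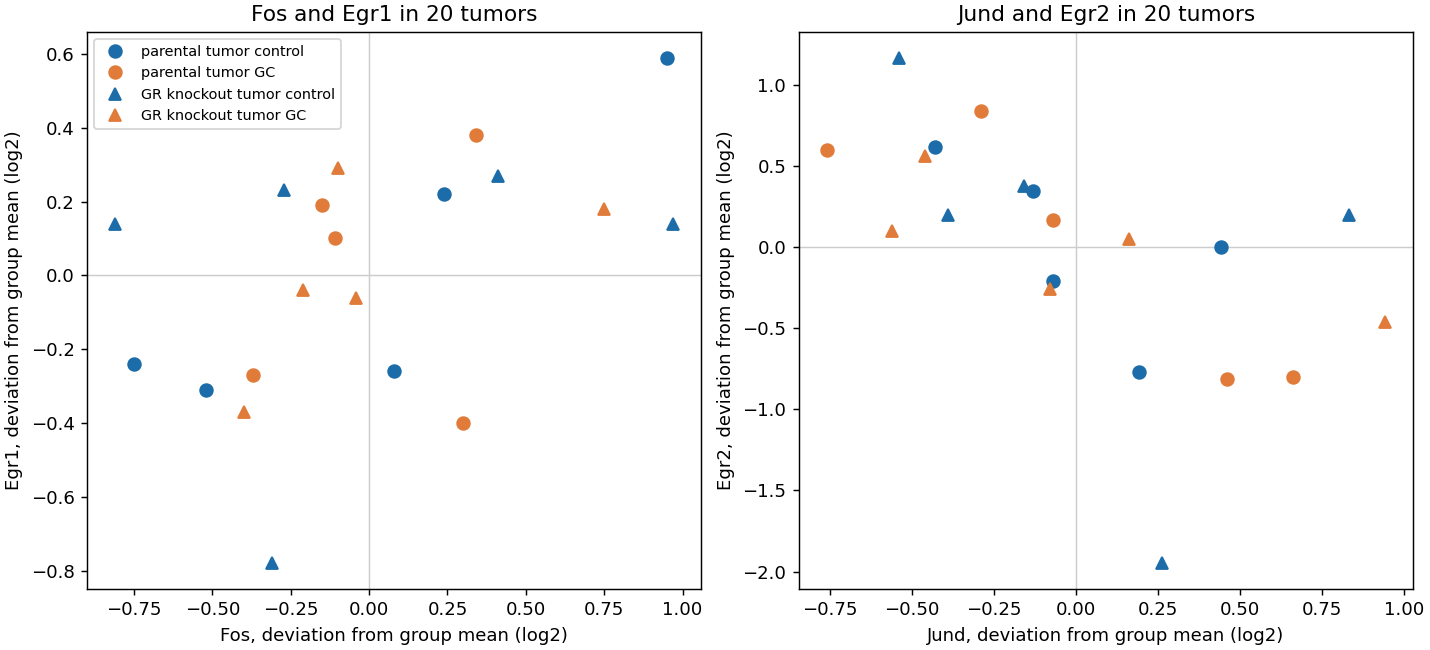
Deviations of log2(CPM + 1) from the group mean in the 20 tumors for *Egr1* against *Fos* and for *Egr2* against *Jund*. Each point is 1 tumor ("GR knockout" is GR KO).

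Genes around the 10 were counted as lists. The related bZIP partners had 0 of 10 tested genes passing with GC in parental tumors by edgeR (median -0.134), and 2 of 10, both lower, in GR KO tumors (median -0.199). Of all 15919 genes 591 were lower with GC in GR KO tumors. *Junb*, the closest relative not among the 10, was 54.1, 90.7, 96.9, 117 and 195 CPM in control parental tumors and 52.1, 13.8, 54.5, 9.41 and 44.7 with GC, with overlap. Its log2 fold change was -1.67 (standard error 0.50, adjusted p = 0.124). *Junb* in GR KO tumors was 46.2, 31.1, 37.9, 175 and 60.7, and 87.8, 41.5, 57.5, 35.2 and 111 (-0.08, adjusted p = 0.942). The lower partners in GR KO tumors were *Batf2* (-1.52, adjusted p = 0.00804) and *Batf3* (-1.66, adjusted p = 0.00533). Both calls were lost without the 6 tumors, but with 1 control GR KO tumor left in that fit the loss decides nothing.

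The EGR co-factors *Nab1* and *Nab2* had 0 of 2 passing with GC in parental tumors (median -0.545), and 0 of 2 in GR KO tumors (median -0.543). *Egr4*, the remaining EGR gene, was at or under the floor in 30 of 31 libraries. Upstream MAP kinase and serum response genes had 0 of 22 passing in parental tumors (median -0.164) and 0 of 22 in GR KO tumors (median 0.132). The same 2 lists had 0 of 2 and 0 of 22 passing in cells of either genotype.

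Of 30 other immediate-early genes, 2 were higher and 1 lower with GC in parental tumors, against 69 and 55 of all 15919 genes (medians -0.348 and 0.00397). The higher genes were *Per1* (2.19, adjusted p = 0.000147) and *Cyr61* (1.70, adjusted p = 0.0197), and the lower was *Klf10* (-1.32, adjusted p = 0.0153). *Per1* also stands in the canonical GC-responsive list and is counted in both. The *Cyr61* call was lost in 4 of 10 fits that left out 1 tumor, as without GC tumor 4 (1.04, adjusted p = 0.0859). It was lost also without the 6 tumors and with the groups fitted alone. Without control tumor 3 *Klf10* was -1.17 (adjusted p = 0.0755). In GR KO tumors 2 of 30 were higher and 3 lower, against 431 and 591 of all 15919 genes (medians 0.147 and 0.0515). The largest were *Per1* (1.29, adjusted p = 0.00744) and *Phlda1* (0.90, adjusted p = 0.0297), and *Dusp5* (-2.27, adjusted p = 0.0021) and *Csrnp1* (-1.63, adjusted p = 0.00293). Without the 6 tumors, with 1 control GR KO tumor left, these 4 calls were lost and the *Dusp5* value was 0.35. The *Phlda1* call was also lost with either covariate, and the *Dusp5* call with the detected-genes covariate. In parental cells 2 of 29 were higher (median 0.379), against 77 of all 12525 genes. They were *Per1* (2.77, adjusted p = 0.000337) and *Plk3* (1.62, adjusted p = 0.0259). The *Plk3* call was lost when any of 4 of the 5 cultures was left out, with the replicate block, with the *Gm26924* covariate and with the groups fitted alone. In GR KO cells 0 of 29 passed.

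AP-1 and EGR target genes had 0 of 18 passing with GC in parental tumors. Their median was -0.389 against 0.00397 over all genes, with 16 of 18 below 0. Under GC they had 0 of 18 differing between genotypes, with a median of 0.484 against 0.00993 over all genes and 16 of 18 above 0. These 2 comparisons share the parental tumors with GC, so the opposite signs are not separate findings. With GC 2 of 18 were higher and 2 lower in GR KO tumors (median 0.312), against 431 and 591 of all 15919 genes. They were *Areg* (2.07, adjusted p = 0.0334) and *Vegfa* (1.70, adjusted p = 0.0338), and *Hbegf* (-1.0, adjusted p = 0.0157) and *Timp1* (-0.99, adjusted p = 0.00797). With the detected-genes covariate the calls of *Areg*, *Vegfa* and *Hbegf* were lost. That of *Areg* was also lost with the *Gm26924* covariate and the replicate block, and those of *Areg* and *Vegfa* with the groups fitted alone. All 4 calls were lost without the 6 tumors, but with 1 control GR KO tumor left that loss decides nothing. When single tumors were left out, *Timp1* kept its call and the other 3 did not. In parental cells 0 of 15 passed (median -0.277), and in GR KO cells 0 of 15.

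Canonical GC-responsive genes had 6 of 9 higher with GC in parental tumors (median 1.73), 5 of 9 in GR KO tumors (median 1.29), 7 of 8 in parental cells (median 2.28) and 0 of 8 in GR KO cells. Of all genes, 69 and 431 of 15919 were higher in these tumors, and 77 and 0 of 12525 in these cells. *Tsc22d3*, for instance, rose by 2.34 (adjusted p = 1.61e-05) in parental and by 1.77 (adjusted p = 0.000403) in GR KO tumors. Without the 6 tumors, with 1 control GR KO tumor left, the GR KO value was 1.41 and the call was lost. Heat shock genes had 0 of 9 passing with GC in tumors of either genotype (median 0.218 in parental and -0.108 in GR KO). In parental cells 1 of 9 passed (*Hspb1*, 1.48, adjusted p = 0.0127), and in GR KO cells 0 of 9. The *Hspb1* call was lost without either GC culture, with the replicate block and with the groups fitted alone. Against cells, 7 of 9 heat shock genes were lower in parental tumors (median -1.24) and 6 of 9 in GR KO tumors (median -1.13). Of all 16273 genes 2640 and 3357 were lower in these comparisons.

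The lists were also read between genotypes. In control tumors 1 bZIP partner, 3 other immediate-early genes and 2 target genes were higher in GR KO, and 2 of the other immediate-early genes were lower. Of 9 canonical GC-responsive genes 1 was lower, *Fkbp5* (-1.50, adjusted p = 0.0296). That call was lost with either covariate and in 8 of 10 fits that left out 1 tumor. *Dusp5* (2.28, adjusted p = 0.00387) and *Mmp3* (1.43, adjusted p = 0.00212) were kept when any single tumor was left out. Both were lost without the 6 tumors, but with 1 control GR KO tumor left the loss of a call decides nothing. In that fit *Dusp5* was -0.30, and its call was also lost with either covariate. Of the other calls, those of *Batf2*, *Hbegf*, *Cyr61*, *Nr4a2* and *Phlda1* were lost with either covariate and in 5 to 9 of 10 fits that left out 1 tumor. The share of all genes passing here went from 2.25% to 0.32% and 0.371% with the covariates for detected genes and *Gm26924*, and to 0% without the 6 tumors. Under GC *Klf10* was higher in GR KO tumors (1.39, adjusted p = 0.0138), as *Egr1* was, and *Per1* lower (-1.24, adjusted p = 0.0242). Leaving out single tumors removed the *Klf10* call in 2 of 10 fits and the *Per1* call in 6 of 10. Of 9 canonical GC-responsive genes 3 were lower under GC, *Per1* and *Mt1* among them, against 0.634% of all genes passing. The *Mt1* call (-1.35, adjusted p = 0.00479) was kept in all 10 such fits. With DMSO 3 of 29 other immediate-early genes were higher in GR KO cells (median 0.468). Of all 12525 genes 273 were higher and 757 lower there (8.22%). The *Dusp5* and *Gadd45b* calls, both among the 3, were lost with the *Gm26924* covariate. Leaving out 1 culture removed them in 2 and 5 of 6 fits. Between tumors and cells of the parental line 10 of 30 other immediate-early genes were higher and 3 lower in tumors, against 4955 higher and 2640 lower of all 16273 genes. For GR KO 8 of 30 were higher and 7 lower, against 5560 higher and 3357 lower of all 16273 genes (medians 0.206 and 0.33).

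In GRCm38 the 10 genes lie on 10 chromosomes: *Fos* at 12:85473890-85477273, *Fosb* at 7:19302696-19310051, *Fosl1* at 19:5447547-5455946, *Fosl2* at 5:32135801-32157842 and *Jun* at 4:95049034-95052222. *Jund* lies at 8:70698949-70700616, *Egr1* at 18:34859823-34864984, *Egr2* at 10:67535475-67542188, *Egr3* at 14:70077203-70082614 and *Atf3* at 1:191170296-191218039 (GENCODE M21). Other annotated genes overlap *Fosl1* (*Ccdc85b*), *Jun* (*Junos*), *Jund* (*Gm11175*) and *Atf3* (*Gm24748*). The strand setting of the counting step is not named, but the methods give default parameters for whatever is not specified. By default strand is ignored, so counts of these 4 may be affected by reads of their neighbors.

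Promoter sequences of RefSeq transcripts were searched for 4 motifs, from 250 bases before to 50 bases after the start. Among 32851 promoters the CArG box, the site of serum response factor, occurred in 1.63%, TGANTCA in 7.81%, TGACGTCA in 1.79% and GCGNGGGCG, the EGR site, in 5.55%. *Egr2* had a CArG box in 4 of its 5 promoters, of which 3 overlap and hold the same site. These 4, between 10:67537316 and 10:67537979, lie inside *Egr2* as placed above. The *Egr2* window over the annotated start, 10:67535249-67535548, had none of the 4 motifs. *Fosl2* and *Fosb* had GCGNGGGCG. The *Fosl2* window, 5:32136222-32136521, lies inside its gene, so the annotated start at 5:32135801 was not searched. The promoters of *Fos*, *Jun* and *Atf3* had none of the 4 motifs within this window. The *Atf3* window lies at 1:191183284-191183583, inside this minus-strand gene as placed above, so the promoter at 1:191218039 was not searched. The *Jund* entry had none either, but it lies at 8:70697489-70697788, before the gene as placed above, so the promoter at that start was not searched. *Egr1*, *Egr3* and *Fosl1* had no promoter entry. A match describes the sequence and says nothing of use in these tumors. The *Egr2* promoter at chr10:67537619-67537918 (GRCm38.p6, RefSeq, plus strand) follows, with the CArG box in capitals.

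Egr2: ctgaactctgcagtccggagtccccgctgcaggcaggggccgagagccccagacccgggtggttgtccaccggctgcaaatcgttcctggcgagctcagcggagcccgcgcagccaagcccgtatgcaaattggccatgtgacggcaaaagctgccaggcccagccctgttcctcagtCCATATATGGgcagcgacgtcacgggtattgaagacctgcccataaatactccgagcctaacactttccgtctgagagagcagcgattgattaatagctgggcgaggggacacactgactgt

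*Egr1* was the member that passed with GC in parental tumors, and it did not pass with GC in GR KO tumors. The difference between these 2 estimates was -1.30, which did not pass by edgeR (adjusted p = 0.0842) but did by DESeq2. The parental call was kept in 5 of 10 fits that left out 1 tumor, and was lost with the groups fitted alone. *Fosl1* had a parental estimate of the same size without passing the test, and *Fos*, *Jun* and *Jund* gave estimates in GR KO tumors that moved with control GR KO tumor 4, with GC tumor 2 or with the *Gm26924* share. *Fosb*, *Fosl2* and *Atf3* passed in neither genotype, and *Egr3* was too scarce to read. Protein levels, phosphorylation and DNA binding of AP-1 and EGR factors are not measured by these libraries.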

How the data were processed

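The authors deposited counts per gene, and these values were used as given. The tags are 3′ reads (QuantSeq), so levels were not compared between genes. The sources name Ensembl 75 as the annotation.

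Genes with at least 0.5 CPM in at least 3 samples were tested, separately for the 20 tumors, the 11 cultures and, for tumors against cells, all 31 libraries. Fits used edgeR 4.0.16 quasi-likelihood tests with TMM factors in R 4.3.3. A gene passed at adjusted p < 0.05 (Benjamini-Hochberg over all tested genes) and at least 1.5-fold. DESeq2 1.42.0 was run as an alternative, and limma 3.58.1 was present. Co-variation used Python 3.11.15, numpy 2.4.6 and scipy 1.17.1, with 100000 permutations within groups.

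The lists were related bZIP partners, EGR co-factors, upstream MAP kinase and serum response genes, other immediate-early genes, AP-1 and EGR target genes, canonical GC-responsive genes and heat shock genes, plus the marker lists whose sums are printed. Within a list, the genes named come from the 2 that passed with the largest change in each direction of a comparison, besides *Junb* and *Egr4*. The 10 genes and the lists were chosen with earlier results of these data known.

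Settings fixed before the counts were read were the low-count filter, DESeq2, DESeq2 size factors, no minimum fold, a replicate block, fitting the compared groups alone, and leaving out each library. Chosen after seeing the data were the covariates for detected genes and *Gm26924*, leaving out the 6 tumors over 5% *Gm26924*, and references other than *Fos*.

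The limits are few tumors per group and fewer cultures, a single GR KO clone, and bulk tumors with host cells that keep GR. The *Gm26924* share and the number of detected genes differ between control GR KO tumors and the rest, and neither was removed from the values printed first. Immediate-early genes respond to handling, and the time from collection to preservation was not used here. Messenger RNA levels of AP-1 and EGR genes do not measure their proteins. The p values adjust over all genes of a comparison and not over the 11 comparisons.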

Additional observations from a re-analysis of the deposited data

Results flagged for a closer look

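In 5 of 40 groups of 5 tumors, 1 value lay far from the other 4, by a test of the gap to its neighbor against the range. For normally distributed values about 1 in 20 groups would be marked this way by chance. Among the 5 are groups of *Egr3* with 4 of 5 values at the floor, where that rate does not hold. The count of 5 of 40 is therefore not read as an excess.

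Each value is the highest or lowest of its own group. Within GR KO tumors with GC, *Fos* was highest in tumor 2, at 12.2 CPM. Within control GR KO tumors, *Egr1* was lowest in tumor 3, at 15.3 CPM. *Egr3* was highest of its group in control parental tumor 2 (1.15 CPM), parental tumor 4 with GC (0.591 CPM) and control GR KO tumor 5 (1.66 CPM), in groups where most other values were at the floor. The cause was not tested, and these libraries were kept.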

How the results depend on the processing

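The number of the 10 genes that passed was recounted under each alternative. In parental tumors with GC it was 1, and 2 with the detected-genes covariate, 0 with the groups fitted alone, and 0 to 1 when single tumors were left out. In GR KO tumors with GC it was 1, and 2 with the filter at 10 counts. It was 0 with the detected-genes covariate, 0 with the *Gm26924* covariate, 0 without the 6 tumors, 0 with the groups fitted alone, and 0 to 2 when single tumors were left out. The share of all genes passing moved as well. In parental tumors it was 0.779%, and 3.28% with the detected-genes covariate and 0.804% with the groups fitted alone. In GR KO tumors it was 6.42%, and 11.6% with the filter at 10 counts, 1.36% and 3.93% with the 2 covariates, 0.187% without the 6 tumors and 2.62% with the groups fitted alone.

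For the difference between the 2 GC effects in tumors it was 0, and 1 by DESeq2, and 0 to 2 when single tumors were left out. Between genotypes in control tumors it was 0, with 0 to 2, and under GC 1, with 0 to 1. In cells it was 0 to 0 for GC in parental cells, for GC in GR KO cells, for their difference and between genotypes with DMSO. With DMSO it was 1 without a filter and 2 with the detected-genes covariate. Between tumors and cells of the parental line it was 4, with 2 to 4, and 2 with the filter at 10 counts. For GR KO it was 7, with 7 to 8, and 4 with the filter at 10 counts and 4 without the 6 tumors. The shares of all genes were 5.13% by DESeq2 for the difference in tumors, 6.29% without a filter and 22.3% with the covariate for DMSO, and 48.3%, 55.4% and 43.1% for the last 3. The filter at 10 counts leaves scarce genes untested, and the cause of the other moves was not tested.

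With *Fos* as the reference, 0 of the 9 genes passed for co-variation in every setting, and 0 to 0 when single tumors were left out. Fitting the compared groups alone was not possible for the differences between 2 GC effects.

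A replicate-number block pairing libraries of the same number gave 1, 1, 0, 0 and 1 in tumors, 0 in each of the 4 comparisons of cells, and 4 and 7 between tumors and cells, as without it. Residuals of same-number tumors had a mean r of 0.0584, and of same-number cultures 0.0198, against -0.0128 and -0.0121 for libraries of different number. In tumors 16 of 30 same-number and 42 of 120 other pairs were over 0.1, and in cultures 6 of 15 and 11 of 30. These values do not show that the numbers pair the libraries.

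Of single genes, 3 values changed sign where the value had passed the test with or without the alternative. Estimates that passed in neither also changed sign, as *Fosb* did with GC in parental tumors (-0.52 to 0.16 when single tumors were left out). *Jund* between parental tumors and cells was 0.79 with the detected-genes covariate, against -0.12. Without the 6 tumors, *Dusp5* was 0.35 against -2.27 with GC in GR KO tumors, and -0.30 against 2.28 between genotypes in control tumors. The cause was not tested.

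Over all genes edgeR and DESeq2 differed in number. With GC they gave 124 and 378 in parental tumors, 1022 and 1779 in GR KO tumors, and 31 and 817 for the difference between these. Between genotypes they gave 358 and 1004 in control tumors and 101 and 289 under GC. In cells they gave 110 and 251 for GC in parental cells and 37 and 128 for the difference.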
